A study of Mus musculus with 12 samples.

Results

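The mouse mitochondrial genome carries 37 annotated features in GENCODE M21, and all 37 were found among the 55471 features of the count tables: 13 protein-coding genes, 22 transfer RNA (tRNA) genes and 2 ribosomal RNA (rRNA) genes. Membership rests on their place on chromosome M alone, with no measured value used, though the set was chosen with earlier results of these data known. By annotation 28 lie on the plus strand and 9 on the minus strand, and 6 share between 3 and 14 bases with a feature on the other strand. The series measured RNA from mixed cortex and hippocampus of adult male C57BL6JL mice aged 3 to 5 months, in 4 groups of 3 libraries. Naive mice were handled only, and stimulated mice received a maximal electroconvulsive stimulus (MECS) of 85 mA for 1 s through ear clips 90 minutes before the tissue was taken. From each state there was input RNA, which is total RNA of the lysate, and RNA recovered from the lysate with an antibody to U1-70K, a protein of the U1 small nuclear ribonucleoprotein. Dissociated tissue of all 4 groups was irradiated with ultraviolet light at 400 mJ/cm2 before lysis, which links RNA to bound protein, and no precipitate with a control antibody was analysed here. The labels do not say whether libraries of a group came from separate animals, so p-values measure the spread between these libraries.

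Mitochondrial DNA is transcribed inside the organelle from both strands into long precursors that run over most of the genome, and the tRNAs between the coding regions mark where the precursors are cut. The mRNAs encode subunits of respiratory complexes I, III, IV and V, the rRNAs form the mitochondrial ribosome, and RNA opposite the genes of one strand is made as part of the precursor of the other. U1 RNA is a nuclear RNA that pairs with 5′ splice sites, and mitochondrial transcripts in mammals have no introns.

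The following sequences show the shared bases that define the overlapping pairs, and the U1 end that pairs with a splice site. They come from the GENCODE M21 transcripts (GRCm38). Capitals mark the bases that lie under a feature of the other strand, and in U1 the complement of the splice site consensus CAGGTAAG.
mt-Nd5 3′ end, chrM:13526-13565, plus strand: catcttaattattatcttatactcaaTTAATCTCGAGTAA
mt-Nd6 3′ end, chrM:13552-13591, minus strand: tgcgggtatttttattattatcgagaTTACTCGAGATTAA
mt-Ti, chrM:3706-3774, plus strand: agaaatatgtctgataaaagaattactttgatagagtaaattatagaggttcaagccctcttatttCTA
mt-Tq, chrM:3772-3842, minus strand: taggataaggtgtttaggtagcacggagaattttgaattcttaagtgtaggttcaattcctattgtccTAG
mt-Ts1, chrM:6870-6938, minus strand: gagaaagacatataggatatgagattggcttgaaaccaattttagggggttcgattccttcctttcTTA
U1 RNA 5′ end, as annotated for Rnu1b1: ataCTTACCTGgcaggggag
mt-Nd5 and mt-Nd6 meet tail to tail and share 14 bases, mt-Ti and mt-Tq share 3, and mt-Co1 and mt-Ts1 share 3. These 6 features held 71.8% of all mitochondrial counts, most of them under mt-Nd5.

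Gene counts per library ranged from 704432 to 1962312, and 88.3% to 91.3% of the listed reads fell in no feature. The kit kept strand, but how the counting program treated strand is not given in the sources, so a count under a symbol may come from that gene's RNA or from RNA of the other strand over the same bases. Defining markers of the labelled brain tissue were present at few counts: Snap25 of neurons at 8 to 22 and Camk2a of excitatory neurons at 34 to 211 in the 12 libraries, while of 5 blood markers 4 haemoglobin genes were at 0 in every library and Alas2, a haem synthesis enzyme of red cell precursors, was at 220 to 861. Naive U1 library 2 stood apart from the other libraries of its group and had the most gene counts of all 12. Its mitochondrial share of 0.126% compares with 0.0534% and 0.0606%. MECS U1 library 2 was the lowest of its group, at 0.0773% against 0.147% and 0.108%. Results that turn on naive U1 library 2 are also given without it. They are descriptions only, since this share was part of the reason for singling it out. The values below are therefore those of features, not of mRNAs. In bulk tissue, fewer cells of a type and less RNA per cell cannot be told apart.

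The 37 features together had 41633 counts over the 12 libraries, from 413 in naive U1 library 1 to 8009 in MECS input library 1. Plus-strand features held 86.3% of them and minus-strand features 13.7%. Coding features held 93.8%, tRNA features 3.85% and rRNA features 2.35%. The kit also depleted ribosomal RNA. A total of 11 features had 0 counts in all libraries, and all 11 were tRNAs, 10 of them on the plus strand. The counts in genome order show this split.

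**Figure D1:**
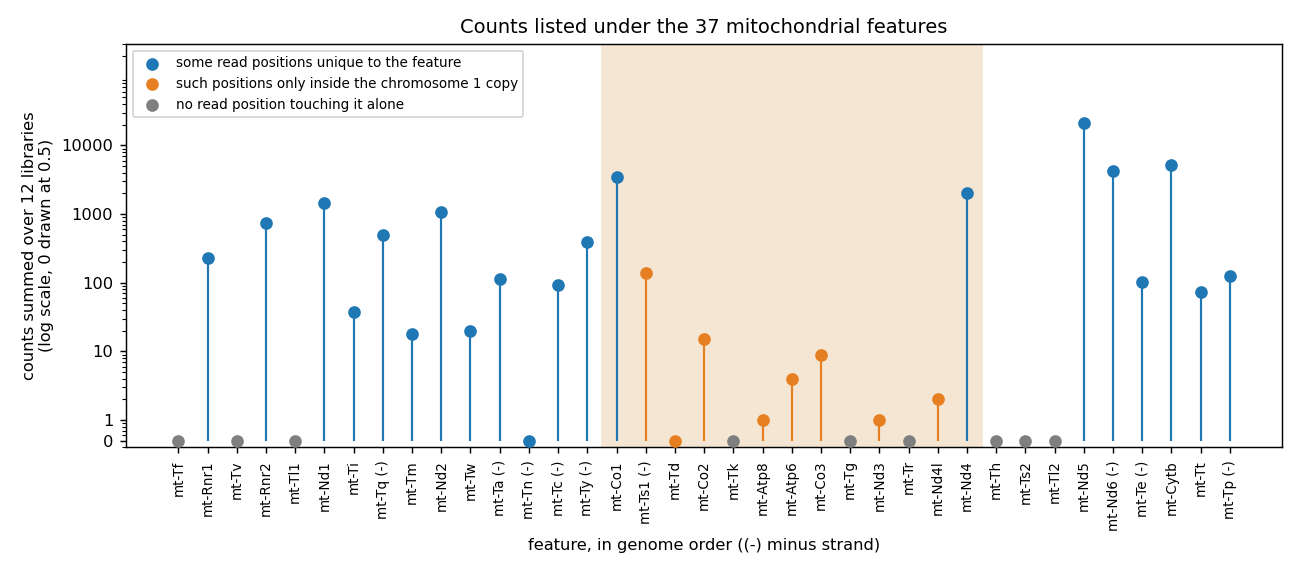
Counts summed over 12 libraries (log axis, 0 drawn at 0.5) for the 37 features in genome order. Grey points mark features that no 100-base read can touch without touching a same-strand neighbour. Orange points mark those that such reads touch only inside the stretch spanned by pseudogene matches on chromosome 1 (shaded). The highest point is mt-Nd5 with 21546 counts.

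Read geometry and a nuclear copy lined up with the empty features. For 9 tRNAs no 100-base read position touches the feature without also touching a neighbour annotated on the same strand, and all 9 had 0 counts. A further stretch of 4653 bases (chrM:6390-11042, plus strand) spans the matches to 7 annotated pseudogenes on chromosome 1. These matches lie within GRCm38 chr1:24611535-24616188 (minus strand, 4654 bases), and their 4140 aligned bases differ at 2. Only transcripts were aligned, so the bases between the matches, which hold mt-Td and most of mt-Ts1, were not compared. The whole span is called the copied stretch. Inside it, 8 features have read positions of their own but none outside it. Of these, mt-Td, a tRNA, had 0 counts, the coding features mt-Co2, mt-Atp8, mt-Atp6, mt-Co3, mt-Nd3 and mt-Nd4l had 0 to 3 counts per library, and the minus-strand tRNA mt-Ts1 reached 30. Together these 17 features held 173 of the 41633 counts, or 0.416%. Of these 173 counts mt-Ts1 had 141, in 11 libraries. The levels of the other 16 were not detectable at this depth and with this counting. The tRNA mt-Tc goes against a strict reading of this geometry, since it has 1 such position and 92 counts, and mt-Tn has 6 positions and 0 counts. Another exception is mt-Ts1, with 141 counts and no read position outside the copied stretch.

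One pseudogene of that stretch did collect counts. Gm28438 is the copy of mt-Nd3, a complex I subunit, and the aligned 345 bases differ by 1 substitution, T3C, counted from the 5′ start of mt-Nd3 with the mitochondrial base first. The first 51 bases of both are shown because this base is the only aligned difference between the features, with the differing base in capitals.
mt-Nd3, chrM:9459-9509, plus strand: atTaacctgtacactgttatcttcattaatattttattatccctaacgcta
Gm28438, chr1:24613069-24613119, minus strand: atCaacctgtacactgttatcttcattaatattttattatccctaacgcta
Gm28438 had 50, 35 and 45 counts in naive input, 91, 29 and 34 in MECS input, 2, 20 and 13 in naive U1, and 25, 7 and 25 in MECS U1. mt-Nd3 itself had a total of 1 count over the 12 libraries together. The other 6 pseudogenes of the stretch had 0 to 3 counts per library. The log2 ratio of U1 to input for Gm28438 was -2.27 (SE 0.37) in naive and -1.66 (SE 0.37) in MECS brain. It passed the filter on low counts through the input level, so these ratios are values only. The MECS changes of Gm28438 in input (0.01) and in U1 (0.63) did not pass the threshold. This feature is not a member of the mitochondrial set and was singled out after its values were seen.

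CPM are a library's counts scaled to 1e+06 of its effective size, which is its filtered gene counts times a scaling factor (TMM). Levels across features were compared as CPM per 1000 read positions, counting only positions that touch 1 same-strand feature and lie outside the copied stretch. Among the 7 coding features and 2 rRNAs with such positions, mt-Nd5, a complex I subunit, was highest in naive input at 1299 ± 115 (SD, n = 3). mt-Nd6, the one protein gene on the minus strand and also a complex I subunit, followed at 542 ± 126. mt-Cytb of complex III (447 ± 109), mt-Nd4 of complex I (432 ± 89.8) and mt-Co1, the catalytic subunit of complex IV, (362 ± 71.3) came next. The 4 values from mt-Nd6 to mt-Co1 differed from their neighbours in this order by less than their SD. Lower still were the complex I subunits mt-Nd1 (207 ± 57.6) and mt-Nd2 (100.3 ± 8.23), and the rRNAs mt-Rnr2 (68.1 ± 26.6) and mt-Rnr1 (33.8 ± 13.1). Of the tRNAs, mt-Ty of tyrosine (793 ± 175) lay between mt-Nd5 and mt-Nd6, and mt-Tq of glutamine (244 ± 87.5) was within 1 SD of mt-Nd1. mt-Tc of cysteine stood at 11657 ± 5420, a value that divides its counts by a single position, and the 7 others with counts ran from 31.9 (mt-Tw) to 147 (mt-Ta). In MECS input, mt-Nd5 (1737 ± 435) and mt-Nd6 (1309.9 ± 563) were within 1 SD of each other. In naive U1 and in MECS U1 they were too, at 193 ± 104 and 178 ± 166, and at 258 ± 69.8 and 307 ± 200.

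mt-Nd5 alone took 52.0% to 55.8% of the mitochondrial counts of the 6 input libraries and 39.5% to 46.6% of those of the 6 U1 libraries. The mt-Cytb count was 18.3% to 25.4% of the mt-Nd5 count in input and 36.4% to 53.7% in U1. mt-Nd1 was 5.88% to 8.91% of mt-Nd5 in input and 4.38% to 9.20% in U1. The first 2 ranges did not overlap between input and U1, and the third did. These ratios were chosen after their values were seen and were not tested.

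Of the 28 plus-strand features 16 never exceeded 3 counts in a library, among them the 10 without counts. Of the 9 minus-strand features 1 did so, the asparagine tRNA mt-Tn, which had none. Among tRNAs, the 8 on the minus strand had 1452 counts and the 14 on the plus strand 149. The 4 plus-strand tRNAs with counts were mt-Ti, mt-Tm, mt-Tw and mt-Tt, and none exceeded 16 in a library. The other 10 plus-strand tRNAs have no read position of their own outside the copied stretch, so the strand difference in tRNA counts and the difference in geometry cannot be told apart. Of the minus-strand tRNAs, mt-Tq reached 107 counts, mt-Ty 95 and mt-Tp 33.

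**Figure D2:**
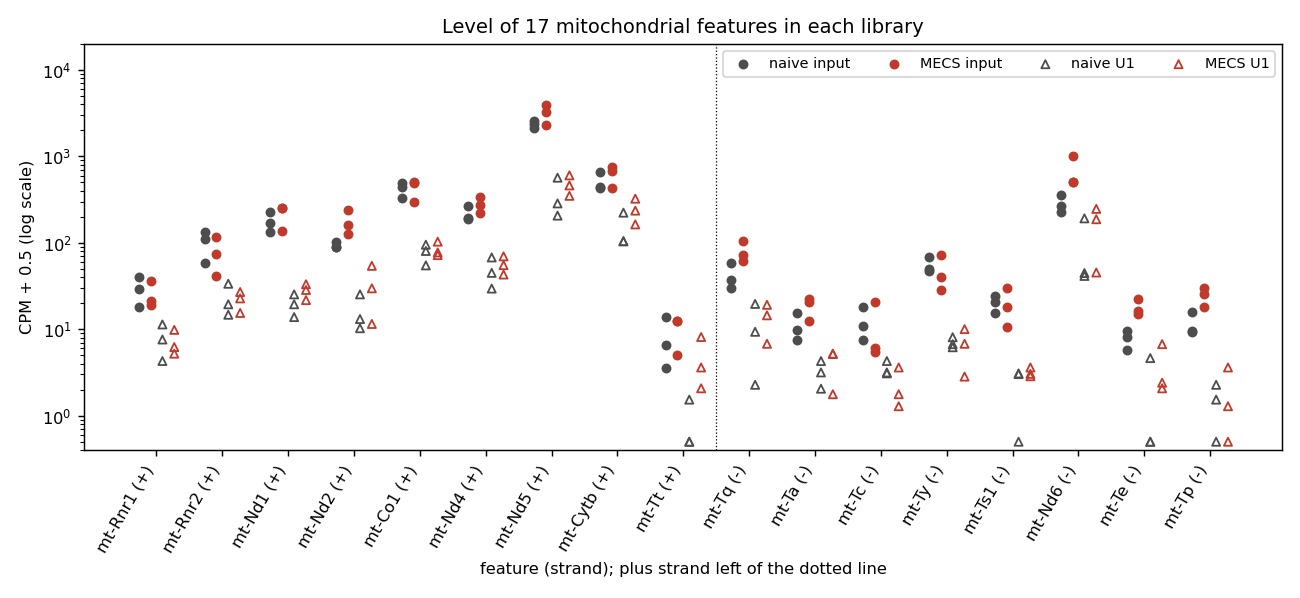
CPM plus 0.5 (log axis) in each of the 12 libraries for the 17 features tested in input RNA, plus strand left and minus strand right of the dotted line. Filled circles are input and open triangles U1, grey naive and red MECS. For mt-Nd5, all 6 input libraries (2156 to 3909 CPM) lie above all 6 U1 libraries (206 to 603 CPM).

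The comparison of U1 with input asked which RNAs were recovered with U1-70K more or less than their share of total RNA. In naive brain mitochondrial features were low with U1. mt-Nd5 was at 2379, 2574 and 2156 CPM in input and at 206, 567 and 285 CPM in U1. All 3 U1 libraries were lower, with U1 library 2 the highest of them, and the log2 ratio was -2.72 (SE 0.23, edgeR adjusted p = 5.44e-10). mt-Nd1 had 169.7, 229 and 131 CPM in input and 19.0, 24.8 and 13.3 CPM in U1. The groups lay far apart for this complex I subunit (log2 ratio -3.13, SE 0.25).

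mt-Cytb was less depleted in naive brain, at 444, 655 and 435 CPM in input and 104, 223 and 104 CPM in U1 (log2 ratio -1.78, SE 0.22). mt-Nd6 had 224, 267 and 353 CPM in input and 44.2, 191 and 40.9 CPM in U1. Its U1 library 2 came close to the lowest input library while libraries 1 and 3 were far below, and the log2 ratio was -1.50 (SE 0.31) with that library and -2.73 (SE 0.24) without it.

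Of the 37 features, 12 passed the filter on low counts in this comparison. For 8 of them (mt-Rnr2, mt-Nd1, mt-Nd2, mt-Co1, mt-Nd4, mt-Nd5, mt-Nd6 and mt-Cytb) the 3 U1 libraries reach the filter's minimum on their own, so that passing did not rest on the input level. All 8 were called lower by edgeR (quasi-likelihood, Benjamini-Hochberg over 10918 features, threshold 0.05), against a background of 6.26% called lower, and all 8 had 3 U1 libraries below 3 input libraries, against a background of 12.6%. Their log2 ratios ran from -3.13 (mt-Nd1) to -1.50 (mt-Nd6). The other 4 passed through the input level and are given as values only: mt-Rnr1 at -1.80, mt-Tq at -1.85, mt-Ty at -3.10 and mt-Ts1 at -3.35. Without naive U1 library 2, the ratio was -3.03 for mt-Tq, -4.04 for mt-Ts1, and -3.08 instead of -2.46 for mt-Nd2. The 25 features not tested comprise the 11 without counts and 14 others with at most 33 counts in any library. DESeq2 did not call mt-Nd6 (-1.63, adjusted p = 0.191) or mt-Tq (-2.05, adjusted p = 0.118). The median log2 ratio over all 10918 features was 0.03.

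In MECS brain the same features were again low with U1. mt-Nd5 was at 3269, 2330 and 3909 CPM in input and 603, 349 and 461 CPM in U1, with no overlap (log2 ratio -2.75, SE 0.19, edgeR adjusted p = 9.14e-09). mt-Cytb was at 671, 425 and 761 CPM in input and 324, 163 and 235 CPM in U1. All 3 U1 values were below the lowest input value, and its log2 ratio of -1.36 (SE 0.21) was the closest to 0 among the features tested here. mt-Nd6 was at 511, 512 and 1017 CPM in input and 247, 44.9 and 187 CPM in U1, with U1 library 2 well below the other U1 libraries (log2 ratio -2.08, SE 0.34).

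Here 15 features were tested. The 8 whose 3 U1 libraries reach the minimum on their own were the same as in naive brain. All 8 were called lower, against a background of 5.21%, and all 8 had 3 U1 libraries below 3 input libraries, against a background of 12.6%. They ran from -2.96 (mt-Nd1) to -1.36 (mt-Cytb). The 7 others passed through the input level and are values only: mt-Rnr1 (-1.93), mt-Tq (-2.60), mt-Ta (-2.36), mt-Ty (-2.90), mt-Ts1 (-2.78), mt-Te (-2.40) and mt-Tp (-4.19), the tRNAs all on the minus strand. Without MECS U1 library 1 the ratio was -3.08 for mt-Nd2, -3.21 for mt-Te and -5.73 for mt-Tp, and without library 3 that of mt-Tp was -3.54. mt-Tp, the proline tRNA, had 33, 19 and 30 counts in input and 4, 1 and 0 in U1, so its ratio rests on few reads. The median over all 10791 features was 0.02.

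**Figure D3:**
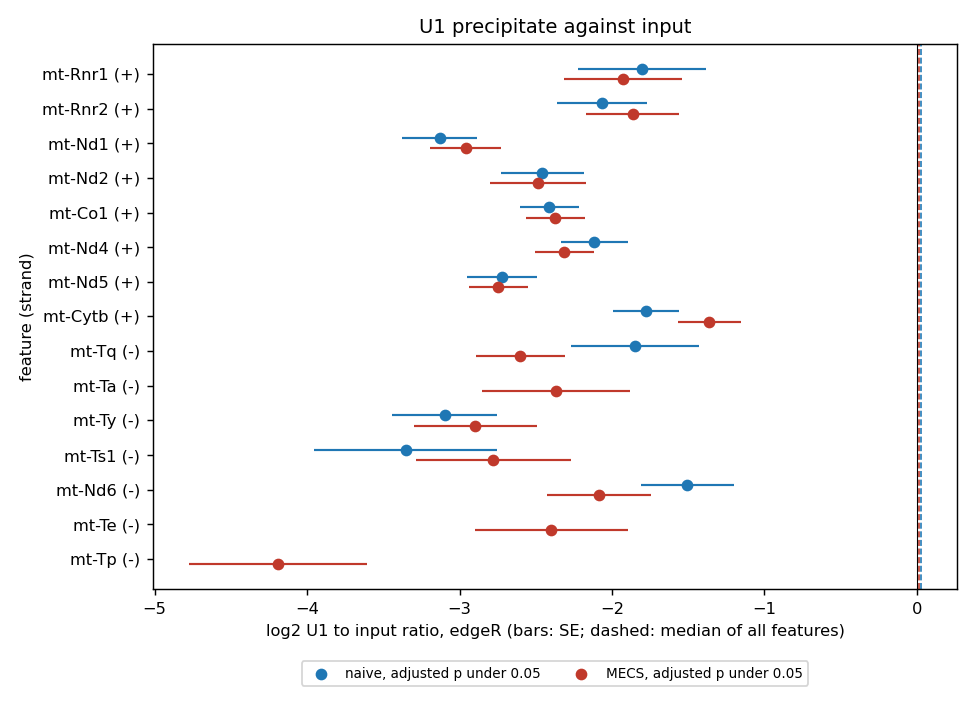
Log2 U1 to input ratio by edgeR with its SE for the tested features, naive in blue and MECS in red, against the median of all features (dashed, near 0). All points are past the threshold and lie between -4.19 and -1.36, the tRNAs and mt-Rnr1 being features that passed the filter through the input level, and those of mt-Cytb lie near the right edge in both states.

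Strand could hardly be compared, since mt-Nd6 was the one minus-strand feature among the 8. The 7 plus-strand features ran from -3.13 to -1.78 in naive and from -2.96 to -1.36 in MECS brain. mt-Nd6 was above the first range at -1.50, within it without naive U1 library 2, and within the second at -2.08. mt-Nd5, which shares bases with mt-Nd6, was at -2.72 and -2.75. By class in naive brain, the 7 coding features ran from -3.13 to -1.50, and the rRNA mt-Rnr2 was at -2.07. No difference between these subsets was tested.

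Markers of several cell types also moved with U1. The summed level of 5 oligodendrocyte markers was 313 to 564 CPM in the 6 input and 102 to 143 CPM in the 6 U1 libraries, and that of 5 excitatory neuron markers was 239.8 to 356 and 92.9 to 169 CPM. The 5 astrocyte markers summed to 196 to 404 and 81.5 to 135 CPM. The 5 smooth muscle and pericyte markers were higher in U1, at 129.9 to 207 against 101 to 129.6 CPM. The part of cell types in the mitochondrial ratios was not tested.

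The comparison of MECS with naive input asked what the stimulus changed in total RNA. mt-Nd6 rose the most among tested mitochondrial features. It was at 224, 267 and 353 CPM in naive and 511, 512 and 1017 CPM in MECS input. All 3 MECS libraries were higher, with library 3 the highest, and the log2 change was 1.24 (SE 0.21, edgeR adjusted p = 0.0016). mt-Nd2, a complex I subunit on the plus strand, was at 89.7, 89.3 and 103 CPM in naive and 161, 127 and 241 CPM in MECS input. Its groups did not overlap, and the log2 change was 0.87 (SE 0.20, edgeR adjusted p = 0.029).

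The call of mt-Nd6 was lost with DESeq2 (1.25, adjusted p = 0.115) and when all 12 libraries shared 1 edgeR fit (1.27, adjusted p = 0.114). That of mt-Nd2 was lost in the 12-library fit, with limma-voom, and without naive input library 1, 2 or 3 or MECS input library 3, when it was 0.60.

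mt-Tq had 36.9, 58.1 and 29.4 CPM in naive and 72.7, 61.6 and 106 CPM in MECS input. The groups did not overlap, but the log2 change of 0.98 (SE 0.25) narrowly missed the threshold (edgeR adjusted p = 0.059), and it passed in 6 of 15 alternatives. The minus-strand tRNAs mt-Te and mt-Tp had 6, 6 and 10 counts and 10, 6 and 20 counts in naive, and 19, 17 and 22 counts and 33, 19 and 30 counts in MECS input. Both passed the filter on low counts only through the MECS level, so that their groups do not overlap in CPM is given as a value only. The changes of 1.23 (SE 0.44) and 1.04 (SE 0.38) did not pass the threshold.

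mt-Nd5 was at 2156 to 2574 CPM in naive and 2330 to 3909 CPM in MECS input, and these ranges overlapped (log2 change 0.40, SE 0.17, edgeR adjusted p = 0.41). mt-Cytb (0.26), mt-Nd1 (0.27), mt-Nd4 (0.34) and mt-Co1 (0.03) did not pass, and neither did mt-Rnr1 (-0.16) and mt-Rnr2 (-0.36). Of 17 features tested, 2 rose and 0 fell, against backgrounds of 0.51% higher and 0.0961% lower among 10402 features. For 12 of the 17 both groups reach the filter's minimum on their own, and these hold both calls. The other 5 are tRNAs (mt-Ta, mt-Tc, mt-Te, mt-Tt and mt-Tp), of which mt-Ta, mt-Te and mt-Tp passed through the MECS level. Among the 12, 4 had an unadjusted p under 0.05, against a background of 9.66%. All 3 MECS libraries lay above all 3 naive ones for 3 of the 12 (mt-Nd6, mt-Nd2 and mt-Tq), against a background of 8.89%.

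Split by strand, the 8 plus-strand features of these 12 had a median change of 0.26 with 1 call, and the 4 minus-strand features a median of 0.46 with 1 call, beside a median of -0.02 over all features. Minus-strand features were not all higher: mt-Ty (-0.24) and mt-Ts1 (-0.05) were below 0. The 5 complex I features had a median of 0.40 and held both calls, and the difference between strands, classes or complexes was not tested across features.

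In U1 RNA, 0 of 9 tested features were called between MECS and naive, against a background of 0.386% called among 11141 features. DESeq2 and limma-voom also called 0, and 2 of the 9 had an unadjusted p under 0.05 in edgeR, against a background of 10.5%: mt-Cytb (0.69, SE 0.24, adjusted p = 0.27) and mt-Nd2 (0.88, SE 0.42, adjusted p = 0.47). mt-Cytb had 104, 223 and 104 CPM in naive and 324, 163 and 235 CPM in MECS U1. The groups overlapped through naive library 2. mt-Nd6 had 44.2, 191 and 40.9 CPM in naive and 247, 44.9 and 187 CPM in MECS U1, with 1 library of each group on the side of the other (0.68, SE 0.43). Without naive U1 library 2, edgeR called mt-Cytb (1.21), mt-Nd5 (0.93) and mt-Nd6 (1.91), and the uncalled change of mt-Tq was 1.42. Over all features that fit called 189 higher and 36 lower, against 37 and 6 with all libraries. With other libraries left out in turn, the changes ranged down to 0.44 (mt-Cytb), 0.13 (mt-Nd5) and 0.26 (mt-Nd6). Of the 9 features, 8 were above 0, with mt-Rnr2 at -0.13, and the median of 0.38 stood beside -0.02 over all features. For none of the 9 did the groups separate, against backgrounds of 8.77% with all MECS libraries higher and 6.67% with all lower.

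**Figure D4:**
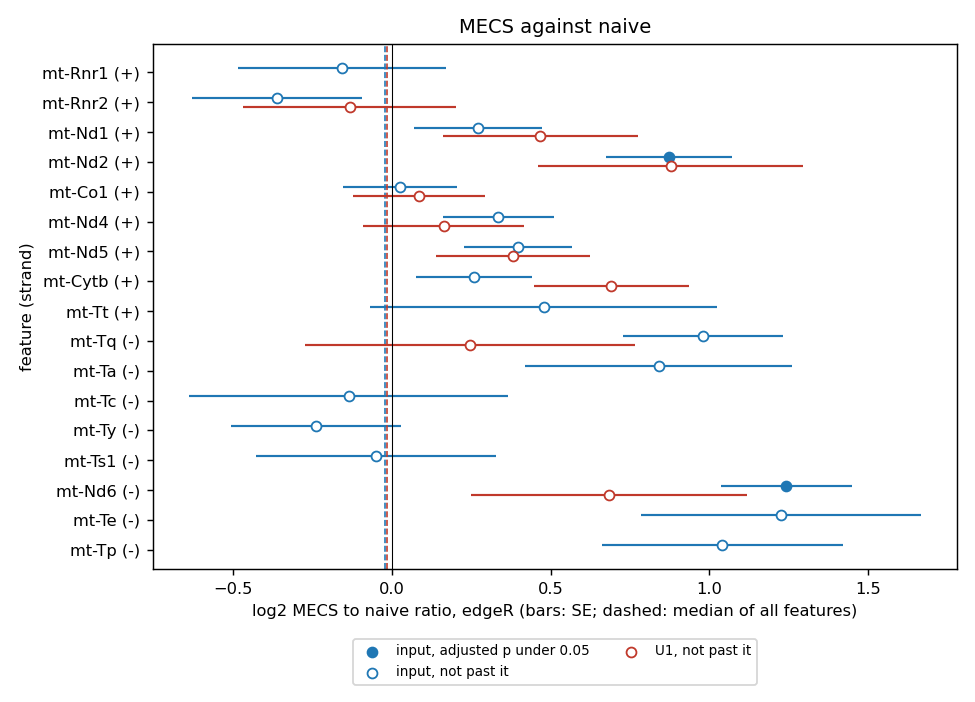
Log2 MECS to naive ratio by edgeR with its SE, input in blue and U1 in red, against the median of all features (dashed). Filled points are past the threshold and are mt-Nd6 (1.24) and mt-Nd2 (0.87) in input, and no U1 point is filled.

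The change of the U1 to input ratio by MECS was tested as an interaction over all 12 libraries. It was called for 0 of 17 features, as for 0% of all 12184, and 0 of the 17 had an unadjusted p under 0.05 in edgeR, against a background of 3.14%. DESeq2 and limma-voom also called 0 of the 17. mt-Nd6 was at -0.58 (SE 0.53) and mt-Cytb at 0.42 (SE 0.33), and the first turned to 0.65 without naive U1 library 2. The difference furthest from 0 was 2.36 (SE 1.18) for the threonine tRNA mt-Tt, which had 0, 2 and 0 counts in naive U1, and it was 4.84 without naive U1 library 2 and 1.54 without MECS U1 library 3. The rise of mt-Nd6 in input was thus not shown to differ from its change in U1.

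Summed over features, mitochondrial features made up 0.39%, 0.472% and 0.374% of gene counts in naive input and 0.561%, 0.435% and 0.726% in MECS input. In U1 they made up 0.0534%, 0.126% and 0.0606% in naive and 0.147%, 0.0773% and 0.108% in MECS brain. Every U1 library was below every input library, 5.15-fold lower on average in naive and 5.19-fold in MECS brain (exact permutation test, 2-sided p = 0.1 in each, the smallest p that 3 against 3 allows). MECS and naive overlapped in input (1.39-fold, exact permutation p = 0.2) and in U1 (1.38-fold, exact permutation p = 0.4). Without naive U1 library 2 the U1 groups did not overlap and differed 1.94-fold, and naive U1 was 7.22-fold below input. That library was singled out partly by this share, so the separation without it is a description only. Leaving out each library in turn gave log2 folds of 0.21 to 0.95 between MECS and naive U1. Without naive U1 library 1 or 3, naive U1 was 4.41-fold and 4.59-fold below input. After adjustment over the 8 comparisons of the 2 shares the lowest p was 0.32.

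Minus-strand features held 8.99%, 8.91% and 12.5% of mitochondrial counts in naive and 12.4%, 15.7% and 17.1% in MECS input. The groups overlapped by a narrow margin (exact permutation p = 0.2, adjusted p = 0.32). In U1 the share was 13.6%, 17.8% and 9.04% in naive and 19.0%, 9.02% and 19.1% in MECS brain (exact permutation p = 0.6). U1 and input overlapped in both states. Without the 2 rRNA features the input groups separated (10.4% ± 1.98 and 15.3% ± 2.34, SD, n = 3 each). The exact permutation p was 0.1, and 0.4 after adjustment over 20 alternative comparisons. The highest naive library was at 12.70% and the lowest MECS library at 12.73%. The input groups overlapped over coding features alone (naive up to 9.53%, MECS from 9.04%) and without mt-Nd5 (naive up to 27.7%, MECS from 26.9%). The mt-Nd6 count relative to that of mt-Nd5 needs no scaling between libraries: it was 9.43%, 10.4% and 16.4% in naive and 15.6%, 22% and 26% in MECS input, a description of a ratio chosen after its values were seen.

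**Figure D5:**
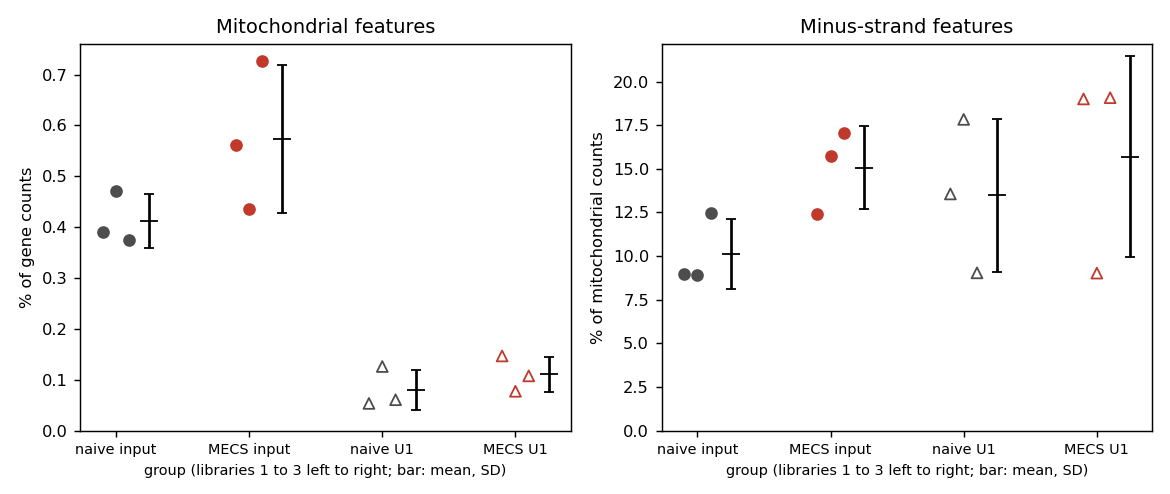
Mitochondrial share of gene counts (left, %) and minus-strand share of mitochondrial counts (right, %) in the 12 libraries, with the mean and SD of each group. On the left all U1 libraries (up to 0.147%) lie below all input libraries (from 0.374%), and on the right all groups overlap a neighbour.

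The splice site letters that U1 pairs with were looked for in the 37 features on both strands. GGTAAG occurred 1 time on the features' own strand, in mt-Rnr1, and 3 times on the other strand, in mt-Nd2, mt-Nd5 and mt-Cytb. GTAAGT, which shares 5 letters with it, occurred 1 time on the own strand, in mt-Rnr2, and 3 times on the other, and the shorter CAGGT 6 and 11 times. In 300-base stretches of the coding features, 9.38% of 32 held GGTAAG on either strand. This stood beside 9.67% of 32851 RefSeq promoter windows and 5.72% of the first 300 bases of 58189 protein-coding GENCODE transcripts. On the own strand alone the shares were 0%, 5.65% and 2.05%. For GTAAGT on either strand they were 6.25%, 7.65% and 4.56%, and for CAGGT 34.4%, 50.1% and 53.6%. The matches under the 2 features with the most counts, on the strand opposite to them, are shown because mt-Cytb was among the features least depleted with U1 and mt-Nd5 among those most depleted. Capitals mark the match, given at the coordinates of the capitals.
mt-Cytb, chrM:14696-14701, minus strand: gcgataataaatGGTAAGatgaagtggaaa
mt-Nd5, chrM:11885-11890, minus strand: aatattaataggGGTAAGaggctaataatg
A match is a description of letters, and both features held 1.

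Nuclear genes for mitochondrial proteins were read as features from the same fits. Of 46 genes for subunits of oxidative phosphorylation, 16 were tested in naive U1 against input, with a median of -0.06 beside 0.03 over all features. Of 43 genes for mitochondrial transcription and RNA handling, 17 were tested, 2 were higher and 4 lower, against backgrounds of 4.19% higher and 6.26% lower, and the 3 with the smallest p were Trnt1, which adds the tRNA 3′ end (-0.90), Mterf4 (0.70) and the helicase gene Dhx30 (0.76). Of 28 genes of mitochondrial translation, 9 were tested and 2 were lower, Gfm1 (-1.49) and Iars2 (-0.60). Of 11 tested genes of biogenesis, dynamics and import, edgeR called 0, with 2 at an unadjusted p under 0.05, against a background of 21.3%. In MECS brain 1 of 52 tested features of the 4 lists was higher, Dhx30 (0.61), and 5 were lower, among them Trnt1 (-0.57), against backgrounds of 3.3% and 5.21%. Between MECS and naive, edgeR called 0 of 53 in input and 0 of 52 in U1, with 3 and 7 at an unadjusted p under 0.05, beside shares of 9.66% and 10.5% over all features. The list medians lay between -0.10 and 0.14 in input.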

How the data were processed

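RNA was sequenced in 12 libraries as single 100-base reads after depletion of ribosomal RNA with a strand-specific kit, per the labels' protocols. The authors deposited raw read counts per Ensembl gene, 1 table per library. Per the submitters' processing notes, tools used include Trimmomatic 0.39, HISAT2 2.2.0, StringTie 2.1.3, Salmon 1.4 and DESeq2 with build mm10, with no roles given, and neither the counter nor its strand setting is given in the sources used here. Rows for reads in no feature, ambiguous, multiply aligned (1.59% to 1.91% of listed reads) or unaligned entered neither library sizes nor tests.

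Identifiers were matched to GENCODE M21 (55144 of 55471). Counts were fitted over all features with edgeR 4.0.16 in R 4.3.3 (TMM, filterByExpr, quasi-likelihood test, Benjamini-Hochberg, threshold 0.05), on the libraries of the 2 groups compared or on all 12 for the interaction. The procedure was checked on simulated data. CPM are counts per 1e+06 of the effective library size, the gene counts past a filter over all 12 libraries times the TMM factor. Shares were compared by exact permutation tests. Nuclear copies were found with BLAST 2.17.0 at 95% identity or more over at least 100 bases. Alternatives were other scaling, filters, DESeq2 1.42.0, limma 3.58.1 (voom), a 12-library fit, omission of each library, and a replicate block. Members and lists were chosen with earlier results of these data known. Every chromosome M feature was eligible to be named, with up to 3 called genes per nuclear list by smallest p. Input and U1 libraries share a title prefix, and their deviations from group means correlated at 0.114 to 0.219 in MECS but -0.0984 to 0.0160 in naive brain. Nuclear cell type markers were read as summed CPM. A gene of the nuclear lists is not reported here.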

Additional observations from a re-analysis of the deposited data

How the results depend on the processing

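Under the alternatives run, 10 to 16 features were called lower in U1 than in input in naive brain and 15 or 16 in MECS brain, and 0 higher. These counts include features that passed the filter through the input level. The fits reported above called 6.26% of all features lower in naive and 5.21% in MECS brain. Between MECS and naive in input, DESeq2 called 1 feature (mt-Nd2), limma-voom 1 (mt-Nd6) and the fit of all 12 libraries 0, and leaving out 1 library gave 1 to 3. Over all features DESeq2 called 45 higher and 7 lower, limma-voom 40 and 9, and the 12-library fit 47 and 8. In U1 RNA, 2 features (mt-Nd6 and mt-Cytb) were called with no filter, and leaving out 1 library gave 0 to 3, the 3 without naive U1 library 2. Over all features, 133 were called higher and 18 lower with no filter, and 189 and 36 without naive U1 library 2. The interaction gave 0 mitochondrial calls in every alternative.

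With the title prefix as a replicate block, 12 and 15 features were lower in U1 than in input, and with the shared number as a block 2 were called between MECS and naive input and 0 in U1, so pairing changed none of these counts. The 12 and 15 include 4 and 7 that passed the filter through the input level. Without a block, 6.26% and 5.21% of all features were called lower in U1. Between MECS and naive, 0.606% were called in input and 0.386% in U1 without a block. Libraries of MECS and naive share a number only: their correlations ran from -0.102 to 0.0688, and 1 of 6 libraries correlated best with its own number. With the prefix block the interaction of mt-Nd5 was 0.091, against -0.026 without it.

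The log2 fold of the minus-strand share between U1 and input in MECS brain was 0.06. It turned to -0.28 without mt-Nd5, and ranged from -0.10 to 0.34 when 1 library was left out. The other 7 share comparisons kept their direction.

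Directions of uncalled features turned as follows, and the cause was not tested. In input, mt-Ts1 was at 0.014 with library size scaling. Over libraries left out in turn, input changes ranged from -0.50 to 0.12 (mt-Rnr1), -1.13 to 0.33 (mt-Tc), -0.70 to 0.029 (mt-Ty), -0.11 to 0.26 (mt-Co1) and -0.47 to 0.27 (mt-Ts1). U1 changes ranged from -0.36 to 0.38 (mt-Rnr2), -0.21 to 1.42 (mt-Tq), -0.074 to 0.30 (mt-Co1) and -0.038 to 0.57 (mt-Nd4). Interactions ranged from -1.23 to 0.44 (mt-Tq), -0.28 to 0.52 (mt-Nd5) and -1.01 to 0.65 (mt-Nd6), and that of mt-Nd5 was 0.011 with DESeq2 and 0.025 with limma-voom. Few counts limit tRNA and coding features alike. Outside mt-Tq and mt-Ty no tRNA exceeded 33 counts in a library, and 6 coding features never exceeded 3. Those 6 have no read position of their own outside the copied stretch, and the part of depth was not tested. U1 libraries held 413 mitochondrial counts at the least.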
